A study of Drosophila melanogaster with 4 samples.

Results

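Piwi-bound small RNA reads were examined on 37 heat shock and chaperonin genes of Drosophila melanogaster, taken by name from 13931 gene rows. They are Hsf, which encodes the transcription factor of the heat shock response, 18 genes whose names start with Hsp and a digit, 7 with Hsc and a digit, 3 with DnaJ- and 8 with CCT and a digit. Of these, 8 were listed at 0 in both groups, 5 others had at most 3 reads in either group, and 24 had a mean of at least 1 RPM (reads per 1000000 reads) over the 2 groups and were tested. The rule picks members by their names alone. The small RNAs came from cultured ovarian somatic cells (OSC), a fly line with the somatic but not the germline cells of the ovary, kept at 26 degrees. Cells of both groups carried an siRNA against Yb, the Tudor-domain protein around which Yb bodies form, and received a plasmid for Yb lacking its Hel-C domain (Yb ΔHel-C, 2 libraries) or for wild-type Yb (Yb WT, 2 libraries). Complexes of Piwi and its piRNAs were isolated with an antibody (listed as Flag), their RNAs of 23 to 30 nucleotides were sequenced, and no group without the siRNA was analysed here. The comparison asks which RNAs reach Piwi when Yb lacks Hel-C.

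Heat shock proteins are chaperones, which help other proteins to fold and keep unfolded ones from clumping. Hsp names in Drosophila were mostly given to genes that heat induces, and Hsc (heat shock cognate) names to relatives that cells express without stress. Hsp70-class proteins work with J-domain partners and nucleotide exchange factors, Hsp90 (Hsp83 in the fly) acts on signalling proteins and on Argonautes, and the 8 CCT proteins form the ring-shaped chaperonin that folds actin and tubulin. In flies Hsp83 is also known as a factor for the loading of Piwi with piRNAs. Piwi in ovarian somatic cells carries piRNAs cut from the transcripts of many protein-coding genes besides those from transposons, so the reads on a gene count small RNAs of its sequence and not the amount of its mRNA or protein.

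For each group there was a single column, read as RPM, so no difference below has a replicate check. On that reading the totals were 2803305 reads in Yb ΔHel-C and 2955141 reads in Yb WT. Intervals are exact 95% intervals and, like the limits for genes at 0, cover counting error only. A count of 0 allows up to 1.07 RPM in Yb ΔHel-C and 1.02 RPM in Yb WT. Gene rows held 78.9% of all reads in Yb ΔHel-C and 64.2% in Yb WT, and transposon rows held 18068 and 49924 RPM. The remaining reads of these totals lay in neither kind of row. The Yb gene itself, fs(1)Yb, had 645 RPM in Yb ΔHel-C and 406 RPM in Yb WT, where plasmid and cellular RNA cannot be told apart. The somatic marker tj had 4481 RPM in Yb ΔHel-C and 6972 RPM in Yb WT, while the germline marker vas had 2 and 0 reads.

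Calls required a change of 2-fold or more, measured as log2 of RPM + 0.5, together with a Benjamini-Hochberg adjusted p of at most 0.05 from an exact binomial test on the reads, adjusted over 7577 genes. With 1 column each, such calls speak of these columns and cannot speak of the conditions. Among all tested genes 40.6% were called higher and 3.21% lower, and the median log2 fold was 0.89. The scaling moves all genes together. TMM factors shift the median by -0.79, with 8.59% of genes then called higher and 11.4% lower, and RLE factors shift it by -0.84, with 7.22% higher and 12.1% lower. Ratios between 2 genes, or between 2 sets of genes, do not depend on the scaling, and they are used below wherever members are compared with each other.

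On the authors' totals, reads on the heat shock and chaperonin genes were mostly higher in Yb ΔHel-C. Their summed level was 6405 RPM in Yb ΔHel-C and 2302 RPM in Yb WT, a ratio of 2.78 (interval 2.71 to 2.86), which was 1.55 with TMM and 1.498 with RLE factors. They made up 0.812% of gene reads in Yb ΔHel-C and 0.359% in Yb WT. Of the 24 tested members, 15 (62.5%) were called higher, against 40.6% of all tested genes, and 9 were not called. None was called lower by the exact test. At an unadjusted p under 0.05 and with no minimum fold, 19 were higher and 0 lower. With TMM factors and with RLE factors 1 member was called higher and none lower. Of all tested genes, 8.59% were higher and 11.4% lower with TMM, and 7.22% and 12.1% with RLE factors. At an unadjusted p under 0.05 in the exact test with no minimum fold, 11 members were higher with either. Hsc70-4 was the 1 that was lower. No share of all tested genes was counted at the unadjusted threshold. Scaled to gene reads, 8 members were called higher, against 27.6% of all tested genes, and none lower, against 5.07%. On the authors' totals with no minimum fold, 17 were higher, against 57.1%, and none lower, against 7.69%. The members' median log2 fold was 1.17, or 0.36 with TMM and 0.31 with RLE factors. Relative to the median of all tested genes, 16 of the 24 lay above it and 8 below it.

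**Figure D1:**
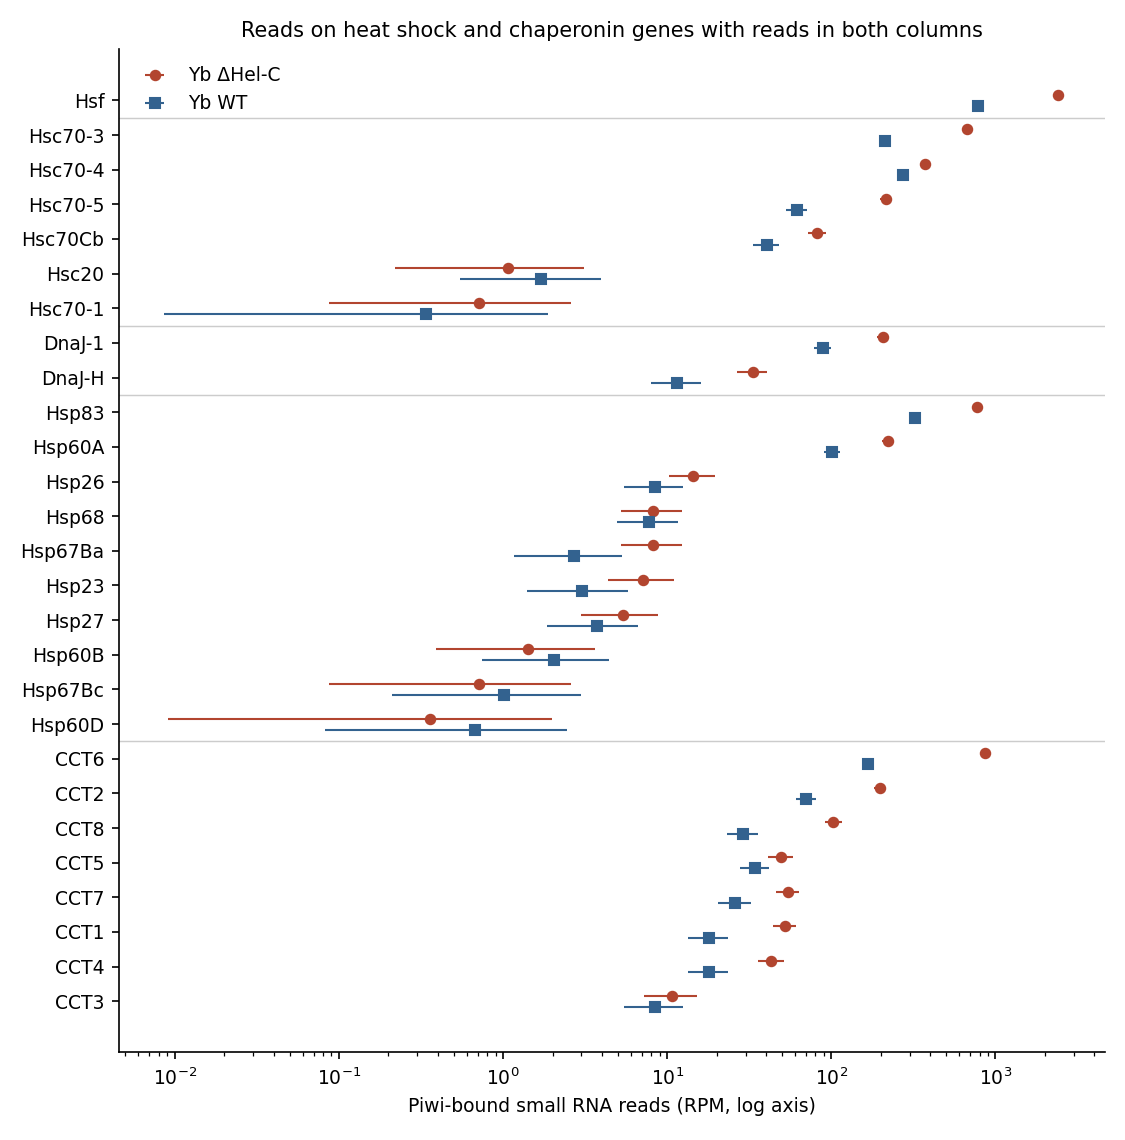
Piwi-bound reads in RPM (log axis) on the members with reads in both groups, by name class and then by mean level, with circles for Yb ΔHel-C and squares for Yb WT. Bars are exact 95% Poisson intervals of the count; Hsf is the highest in both groups, at 2412 and 788 RPM.

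The members' calls on the authors' totals were also set beside those of genes at the same level, as a description. Of the 8 members with a mean from 100 to 1000 RPM, 7 were called higher, against 30.6% of all genes at that level, and their median log2 fold was 1.38, against 0.57. Of the 8 members from 10 to 100 RPM, 6 were called higher, against 54.9% of all genes there, with medians of 1.15 and 1.09. Of the 7 members from 1 to 10 RPM, 1 was called higher, against 30.3% of all genes there, with medians of 0.32 and 0.78. With TMM factors 1 of the 8 members from 100 to 1000 RPM was called higher, against 3.84% of all genes there, and none of the 8 from 10 to 100 RPM, against 12.1%. In the plot of fold against level, Hsc70-4 is the one member above 100 RPM that lies below the median of all genes.

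**Figure D2:**
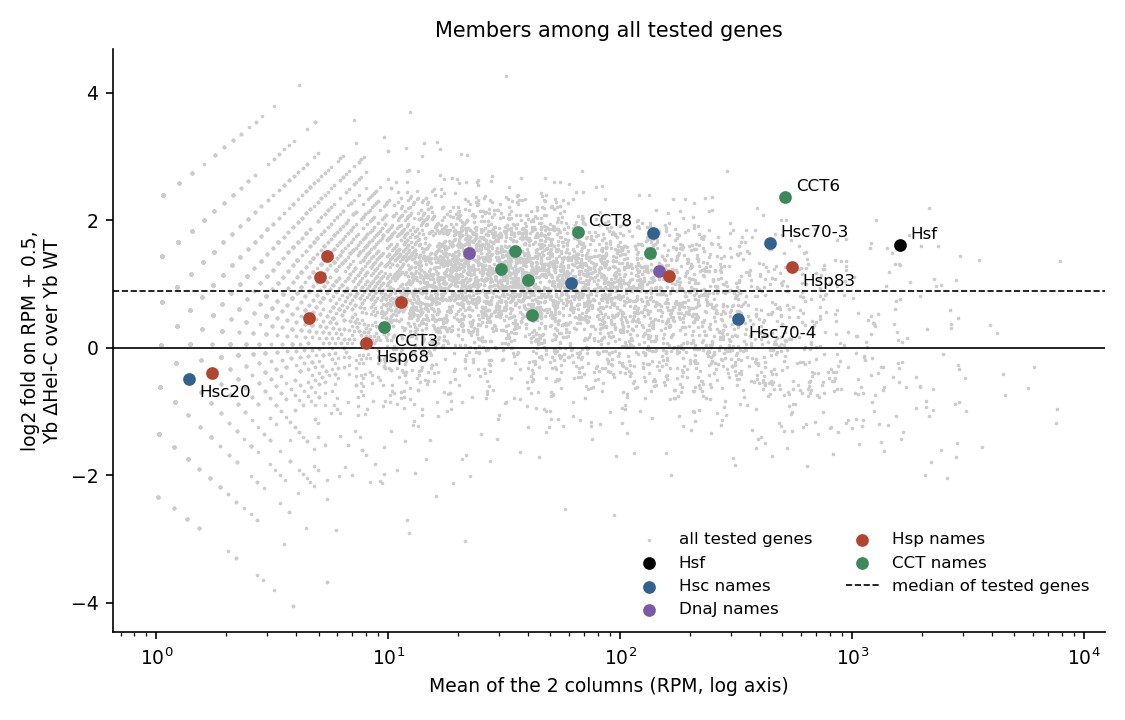
Log2 fold of Yb ΔHel-C over Yb WT on RPM + 0.5 against the mean of both groups (RPM, log axis) for all tested genes (grey) and the 24 tested members (colours by name class). The dashed line is the median of all tested genes at 0.89; Hsf, CCT6 and Hsc70-3 lie above it at high level, and Hsc70-4 lies below it.

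Hsf (2R, 18130303 to 18134634, dm6) was the member with the most reads. It had 6762 reads or 2412 RPM in Yb ΔHel-C, against 2328 reads or 788 RPM in Yb WT, a ratio of 3.06 (2.92 to 3.21). Its rank among all genes was 28 in Yb ΔHel-C and 152 in Yb WT. Of the reads on all members it held 37.7% (exact interval 37.0 to 38.4) in Yb ΔHel-C and 34.2% (33.1 to 35.4) in Yb WT, so its share within the set moved far less than its level. The ratio of Hsf was 1.16 times that of the other members together (1.09 to 1.23) and 1.27 times that of Hsp83 (1.16 to 1.40). Per kilobase of annotated gene span, introns included, Hsf stood at 557 RPM in Yb ΔHel-C and 182 RPM in Yb WT, also the highest member. Its log2 fold of 1.61 came to 0.77 with TMM and 0.72 with RLE factors, under the 2-fold threshold. Hsf was the one member among the 119 genes that averaged 1000 RPM or more, of which 17.6% were called higher on the authors' totals.

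The Hsc70 genes did not move together. Hsc70-3 (X, 11801696 to 11807117), which encodes BiP, the Hsp70 of the endoplasmic reticulum, had 667 RPM in Yb ΔHel-C and 213 RPM in Yb WT, a ratio of 3.13 (2.86 to 3.43). Hsc70-5 (2R, 14252598 to 14256192), the mitochondrial Hsp70, had 215 RPM in Yb ΔHel-C and 61.6 RPM in Yb WT, a ratio of 3.50 (2.96 to 4.15). Hsc70-4 (3R, 15242687 to 15246614), the main Hsp70 of the cytosol and nucleus, had 372 RPM in Yb ΔHel-C and 272 RPM in Yb WT, a ratio of 1.37 (1.24 to 1.499) that was not called and turned below 1 with TMM (log2 fold -0.39) and RLE factors (-0.44). In Yb WT, Hsc70-4 thus had more reads than Hsc70-3, and in Yb ΔHel-C it had fewer. Set against Hsc70-4, the ratio was 2.29 times as large for Hsc70-3 (2.01 to 2.61) and 2.56 times as large for Hsc70-5 (2.11 to 3.11). Between Hsc70-3 and Hsc70-5 it was 0.895 (0.737 to 1.08), so no difference between these 2 was detectable at this depth.

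Of the tested members that work with Hsp70, Hsc70Cb, DnaJ-1 and DnaJ-H were called higher on the authors' totals, and Hsc20 was not. The share of all tested genes was 40.6%. With TMM or RLE factors none of them was called, against 8.59% and 7.22% of all tested genes called higher. Hsc70Cb, an Hsp110-type exchange factor, had 82.0 RPM in Yb ΔHel-C and 40.3 RPM in Yb WT, a ratio of 2.04 (1.63 to 2.56). DnaJ-1, the heat-inducible J-domain protein related to human DNAJB1, had 205 RPM in Yb ΔHel-C and 88.3 RPM in Yb WT, a ratio of 2.33 (2.01 to 2.70). DnaJ-H had 33.2 RPM in Yb ΔHel-C and 11.5 RPM in Yb WT, a ratio of 2.88 (1.93 to 4.41). Set against Hsc70-4, the ratio was 1.49 times as large for Hsc70Cb (1.17 to 1.91) and 1.70 times as large for DnaJ-1 (1.43 to 2.03). Hsc20, named for a J-domain protein of iron-sulphur cluster assembly, had 3 reads in Yb ΔHel-C and 5 in Yb WT. DnaJ-60 and Hsc70-2 were listed at 0 in both groups, and Hsc70-1 had 2 reads and 1 read.

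Most reads of the Hsp names lay on genes that cells express without stress. Hsp83 (3L, 3192969 to 3197059), the cytosolic Hsp90, had 775 RPM in Yb ΔHel-C and 322 RPM in Yb WT, and its ratio of 2.40 (2.23 to 2.60) was 1.76 times that of Hsc70-4 (1.56 to 1.99). Hsp60A (X, 11108482 to 11112308), the mitochondrial chaperonin, had 222 RPM in Yb ΔHel-C and 102 RPM in Yb WT, a ratio of 2.18 (1.90 to 2.51). Both were called higher on the authors' totals, and neither with TMM or RLE factors. Hsc70-5, which works beside Hsp60A in the mitochondrion, had a ratio 1.60 times as large (1.29 to 2.00). The other Hsp60 copies, Hsp60B, Hsp60C and Hsp60D, together had 5 reads in Yb ΔHel-C and 9 in Yb WT.

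The Hsp genes listed here as heat-inducible and little expressed without stress carried few Piwi-bound reads in either group. The 6 Hsp70 copies had 1 read in Yb ΔHel-C, on Hsp70Bb, and none in Yb WT. These copies are nearly identical, and how reads that map to several places were handled is not stated by the labels or notes, so a row listed at 0 cannot be told apart from one whose reads were not counted. Of the small heat shock genes at the 67B locus on 3L, the 6 members together had 100 reads in Yb ΔHel-C and 56 in Yb WT. Hsp26 had 40 reads in Yb ΔHel-C and 25 in Yb WT, Hsp23 had 20 and 9, and Hsp27 had 15 and 11. The intervals of Hsp26 and Hsp27 include a ratio of 1, and that of Hsp23 starts at 1.02. Hsp67Ba had 23 reads in Yb ΔHel-C and 8 in Yb WT, a ratio of 3.03 (1.31 to 7.84). On the authors' totals it was the one gene of the locus called higher, against 30.3% of all genes averaging from 1 to 10 RPM. With TMM factors, RLE factors or gene reads it was not called. An annotated antisense RNA overlaps 1375 bases of it. With TMM factors the summed ratio of the locus was 1.05, against 1.88 (1.34 to 2.66) on the authors' totals. Hsp67Bc had 2 reads in Yb ΔHel-C and 3 in Yb WT, and Hsp22 was listed at 0 in both. Hsp68, a further inducible Hsp70-class gene, had 23 reads in each group.

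**Figure D3:**
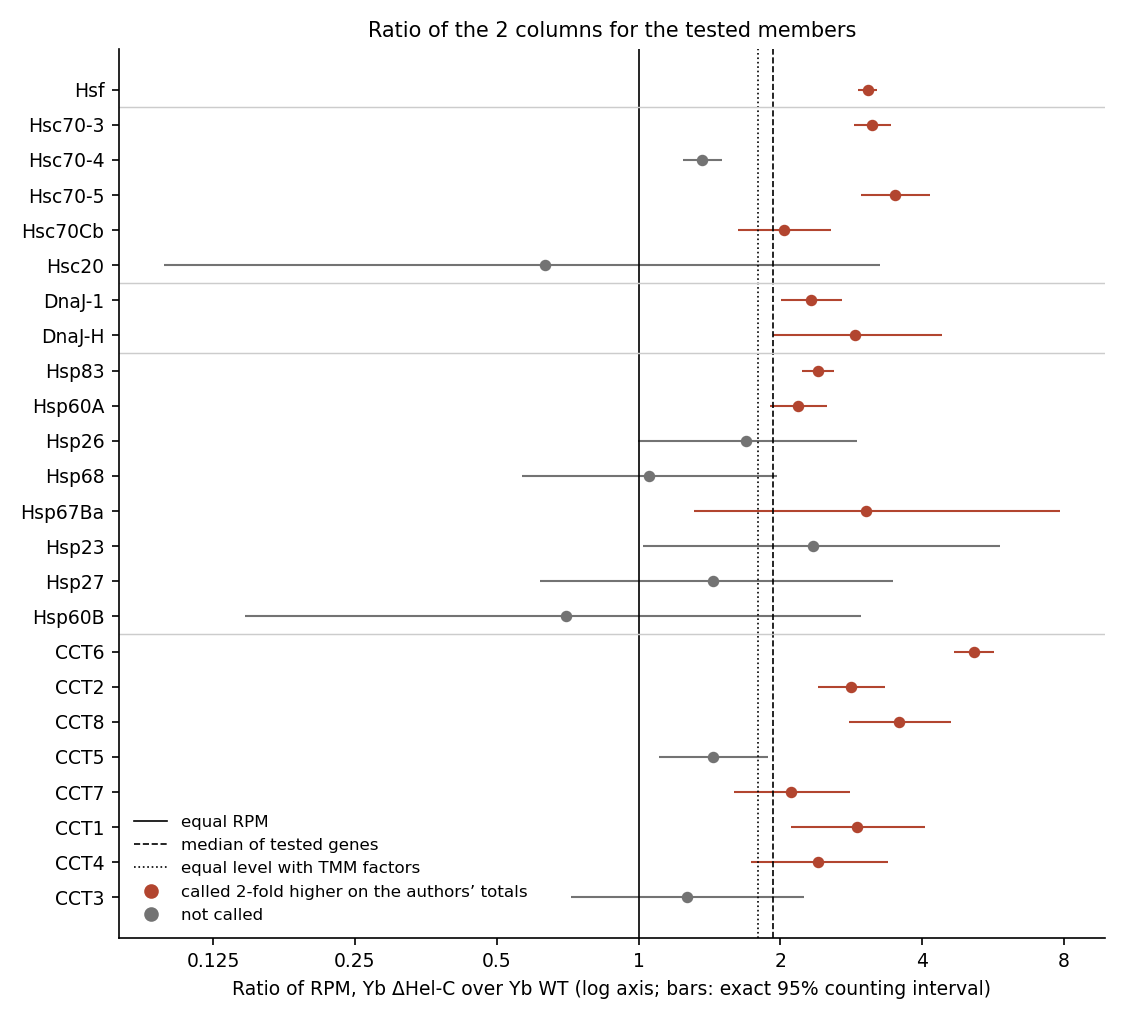
Ratio of RPM, Yb ΔHel-C over Yb WT (log axis), with exact 95% counting intervals for the 24 tested members by name class. The dashed line is the median ratio of all tested genes (1.93) and the dotted line the ratio that TMM factors take as equal (1.79); CCT6 lies farthest to the right, Hsc70-4 and CCT5 lie left of both lines, and members with few reads have wide intervals.

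Taken by name, no difference between Hsc and Hsp genes was detectable in their summed reads. The 7 Hsc names together had 1339 RPM in Yb ΔHel-C and 589 RPM in Yb WT, a ratio of 2.27 (2.15 to 2.41). The 18 Hsp names together had 1042 RPM in Yb ΔHel-C and 454 RPM in Yb WT, a ratio of 2.30 (2.15 to 2.45). The ratio of the Hsc names was 0.989 times that of the Hsp names (0.906 to 1.08), whichever scaling is used, so the interval leaves room for a difference of up to 1.10-fold. With TMM factors both ratios stayed above 1, at 1.27 for the Hsc and 1.28 for the Hsp names. Hsc70-4 weighed on this comparison: without it, in an alternative added after the data were seen, the ratio of the remaining Hsc names was 1.33 times that of the Hsp names (1.20 to 1.47). Without Hsp83 and Hsp60A, the Hsp names together had 46.0 RPM in Yb ΔHel-C and 29.8 RPM in Yb WT, a ratio of 1.55 (1.17 to 2.05) that turned to 0.861 with TMM and 0.832 with RLE factors. On the authors' totals 3 of 5 tested Hsc names and 3 of 8 tested Hsp names were called higher. The share of all tested genes was 40.6%. With TMM or RLE factors none of either was called higher, against 8.59% and 7.22% of all tested genes.

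In a second grouping, a list of constitutive genes, expressed without stress, took in Hsp83 and Hsp60A. Being on this list does not exclude induction by heat, so the 2 lists are not a clean split by inducibility. Hsp83 held 2172 of the 6546 reads of the constitutive list in Yb ΔHel-C. The 9 constitutive genes had 2335 RPM in Yb ΔHel-C and 1013 RPM in Yb WT, a ratio of 2.30 (2.21 to 2.41). The inducible list, which counts DnaJ-1 and the Hsp67Bb row (present under the name CG4456 and listed at 0), had 250 RPM in Yb ΔHel-C and 115 RPM in Yb WT, a ratio of 2.17 (1.90 to 2.48). The ratio of the constitutive genes was 1.06 times that of the inducible list (0.923 to 1.22), so no difference was detectable. DnaJ-1 alone held most reads of the inducible list. Without it the inducible list had 124 reads in Yb ΔHel-C and 79 in Yb WT. The ratio of the constitutive genes was then 1.39 times as large (1.03 to 1.87). Leaving out DnaJ-1 was not among the planned comparisons. The inducible genes left in this comparison carry few reads, with Hsp26 the highest at 14.3 RPM in Yb ΔHel-C and 8.46 RPM in Yb WT, and the part of level in this difference was not tested.

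The chaperonin subunits gave the highest summed ratio of the name classes. The 8 CCT genes together had 1373 RPM in Yb ΔHel-C and 371 RPM in Yb WT, a ratio of 3.70 (3.46 to 3.96), or 2.06 with TMM factors. That was 1.63 times the ratio of the Hsc names (1.49 to 1.78) and 1.61 times that of the Hsp names (1.47 to 1.77). CCT6 supplied most of these reads. It (X, 15746648 to 15748971) had 862 RPM in Yb ΔHel-C and 168 RPM in Yb WT, a ratio of 5.15 (4.67 to 5.68), and its rank among all genes was 146 in Yb ΔHel-C and 723 in Yb WT. CCT6 was the one member called higher with TMM (log2 fold 1.52) and RLE factors (1.47) as well, and its log2 fold of 2.36 exceeded that of 96.6% of all tested genes. No other annotated gene overlaps its span. Without CCT6 the 7 remaining subunits had 511 RPM in Yb ΔHel-C and 203 RPM in Yb WT, a ratio of 2.51 (2.28 to 2.77).

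Although the 8 proteins take equal parts in the chaperonin ring, reads on their genes changed by different amounts. CCT8 had 103 RPM in Yb ΔHel-C and 28.8 RPM in Yb WT, a ratio of 3.57 (2.80 to 4.60). CCT1 had 52.1 RPM in Yb ΔHel-C and 17.9 RPM in Yb WT, a ratio of 2.90 (2.11 to 4.06). CCT2 had 199 RPM in Yb ΔHel-C and 70.4 RPM in Yb WT, a ratio of 2.82 (2.40 to 3.33). These 3 were called higher on the authors' totals, as were CCT4 at 43.2 and 17.9 RPM (ratio 2.41, 1.73 to 3.39) and CCT7 at 54.2 and 25.7 RPM (ratio 2.11, 1.59 to 2.81). The share of all tested genes called higher was 40.6%. It was 54.9% for those averaging from 10 to 100 RPM and 30.6% from 100 to 1000 RPM. With TMM or RLE factors CCT1, CCT2, CCT4, CCT7 and CCT8 were not called, against 8.59% and 7.22% of all tested genes called higher. CCT5 had 49.2 RPM in Yb ΔHel-C and 34.2 RPM in Yb WT, a ratio of 1.44 (1.11 to 1.88), and CCT3 had 10.7 RPM in Yb ΔHel-C and 8.46 RPM in Yb WT, a ratio of 1.26 (0.719 to 2.24). Neither was called, and both turned below 1 with TMM and RLE factors.

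Set against the summed reads of the other 7 subunits, which cancels the scaling, CCT6 had a ratio 2.05 times as large (1.78 to 2.35). CCT5 stood at 0.366 (0.279 to 0.483) and CCT3 at 0.337 (0.191 to 0.600) on the same measure, and CCT2, CCT4 and CCT7 lay between 0.552 and 0.723 with intervals below 1. The intervals of CCT8 (0.962, 0.745 to 1.25) and CCT1 (0.776, 0.559 to 1.09) include 1. Because CCT6 held 2416 of the 3848 CCT reads in Yb ΔHel-C, the values of the others are set mainly against it. The 8 intervals are not adjusted for their number.

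**Figure D4:**
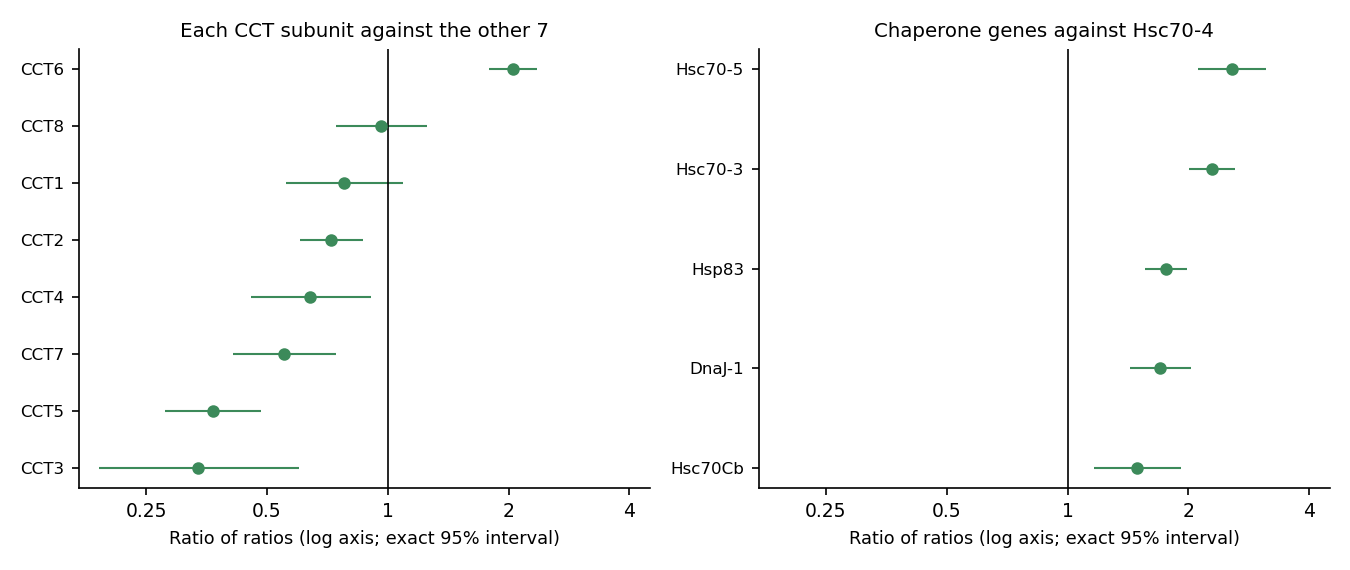
Ratios of ratios (log axis) with exact 95% intervals for counting error, which no scaling changes. Left, each CCT gene against the other 7, with CCT6 at 2.05 and CCT3 at 0.337; right, 5 chaperone genes against Hsc70-4, all above 1, with Hsc70-5 at 2.56.

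Loci of 13 of the 37 members overlap another annotated gene, and 9 of these were tested. Whether counting used the strand is not stated by the labels or notes, so reads in such overlaps are uncertain. The microRNA gene mir-13b-2 lies within CCT2, and CG9839 lies wholly within CCT7 with 43 reads of its own in Yb ΔHel-C and 33 in Yb WT. DnaJ-H shares 509 bases with Sirt1, which was itself called higher on the authors' totals, at 87.8 RPM in Yb ΔHel-C and 32.5 RPM in Yb WT. Hsp22 lies within CG4456, which is listed at 0. CG42568, also listed at 0, covers all 1645 bases of DnaJ-60, and Hsp60D lies within CG42784. The low counts of these members are uncertain in the same way. Hsp83 shares 15 bases with CG14966, CCT5 shares 87 bases with EndoG, and Hsc20 shares 26 bases with l(3)72Dp. On the authors' totals, 10 of the 15 tested members that overlap no gene were called higher and 5 of the 9 that do, against 40.6% of all tested genes. With TMM or RLE factors it was 1 of the 15 and none of the 9, against 8.59% and 7.22% of all tested genes.

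Genes that work with these chaperones were looked up from lists of co-chaperones and related factors. Over all lists, 85 genes that are not members were found in the table, 9 of them at 0 in both groups and 70 tested. Of the 70, 36 (51.4%) were called higher, against 40.6% of all tested genes, and 2 lower, against 3.21%. Their median log2 fold was 1.16, close to the members' 1.17. With TMM or RLE factors 7 of the 70 were called higher and 4 lower. Of all tested genes, 8.59% were higher and 11.4% lower with TMM, and 7.22% and 12.1% with RLE factors. These shares also stand beside the TMM and RLE counts of each list below. The plot by list shows folds on either side of the median of all genes in each of 6 lists.

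Among 9 Hsp90 co-chaperones, 4 were called higher and none lower on the authors' totals, against 40.6% and 3.21% of all tested genes, with a median log2 fold of 0.92. With TMM or RLE factors 1 was called higher and 1, Sgt, lower, and the median was 0.085 with TMM and 0.036 with RLE factors. Cdc37, which brings kinases to Hsp90, had 25.3 RPM in Yb ΔHel-C and 5.75 RPM in Yb WT, a ratio of 4.40 (2.57 to 7.97) that stayed past 2-fold with TMM and RLE factors. CG1416, annotated with the synonym Aha1 of the Hsp90 ATPase activator, was the most abundant, at 308 RPM in Yb ΔHel-C and 101 RPM in Yb WT, a ratio of 3.06 (2.68 to 3.51). Dpit47, a TPR-domain partner of Hsp90, was at a ratio of 2.54 (1.85 to 3.54). Stip1, the Hop protein that links Hsp70 to Hsp90 and is known to bind Piwi in flies, was looked at after its value was seen, and had 50.3 RPM in Yb ΔHel-C and 27.1 RPM in Yb WT, a ratio of 1.86 (1.40 to 2.48) that was not called.

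Among 30 tested J-domain proteins, exchange factors and other Hsp70 partners, 16 were called higher and 1 lower on the authors' totals, against 40.6% and 3.21% of all tested genes, with a median log2 fold of 1.22. With TMM or RLE factors 1 was called higher and 2, jdp and CG30156, lower. The most abundant of them, Csp, the cysteine string protein, had 1164 RPM in Yb ΔHel-C and 1157 RPM in Yb WT, and its ratio of 1.01 (0.958 to 1.06) turned below 1 with TMM (log2 fold -0.83) and RLE factors. The 1 called lower on the authors' totals, named after its value was seen, was CG30156, with 4 reads in Yb ΔHel-C and 21 in Yb WT. Among called genes averaging 10 RPM or more, the largest ratios were those of CG3061 (3.98, 2.94 to 5.48), CG8531 (3.57, 2.48 to 5.24) and CG7872 (3.55, 2.83 to 4.48), and of these CG3061 stayed past 2-fold with TMM and RLE factors. Prefoldin hands new chains to the chaperonin. Among 10 genes of prefoldin and of CCT cofactors, 5 were called higher and none lower on the authors' totals, with a median of 0.98. The shares of all tested genes were 40.6% and 3.21%. With TMM or RLE factors 2 were called higher and none lower. The shares of all tested genes called higher were then 8.59% with TMM and 7.22% with RLE factors. The prefoldin subunit gene mgr had 33.2 RPM in Yb ΔHel-C and 6.77 RPM in Yb WT, a ratio of 4.90 (3.00 to 8.39), past 2-fold with TMM and RLE factors too. CG4511 and viaf, phosducin-like proteins, had ratios of 2.79 (1.86 to 4.27) and 2.75 (2.12 to 3.61), and viaf was the most abundant on the list, at 74.6 RPM in Yb ΔHel-C and 27.1 RPM in Yb WT.

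The lists of organelle chaperones were set beside Hsc70-3, Hsc70-5 and Hsp60A. Of all tested genes, 40.6% were called higher and 3.21% lower on the authors' totals. With TMM factors it was 8.59% and 11.4%, and with RLE factors 7.22% and 12.1%. Of 9 tested genes of the endoplasmic reticulum, 6 were called higher and none lower on the authors' totals, with a median log2 fold of 1.55. With TMM or RLE factors 1 was called higher and none lower. ERp60, a disulphide isomerase, had 260 RPM in Yb ΔHel-C and 88.0 RPM in Yb WT, a ratio of 2.96 (2.57 to 3.42) close to the 3.13 of Hsc70-3. Ero1L, the oxidase that supplies these isomerases, had a ratio of 3.84 (2.22 to 7.01), the calnexin gene Cnx99A 3.29 (2.21 to 4.99) and CaBP1 3.10 (2.11 to 4.67). Of 6 tested mitochondrial genes that are not members, 3 were called higher and none lower on the authors' totals, with a median of 1.28. With TMM or RLE factors 2 were called higher and none lower. Roe1, called higher on the authors' totals, was also counted among the Hsp70 partners above. Trap1, the mitochondrial Hsp90, had 17.8 RPM in Yb ΔHel-C and 2.71 RPM in Yb WT, and its ratio of 6.59 (3.10 to 16.1) rests on 50 and 8 reads. The protease gene Lon had a ratio of 3.86 (2.63 to 5.78), the GrpE-type exchange factor gene Roe1 2.77 (1.61 to 4.98), and CG4538, annotated as ClpX and the most abundant of these, 1.49 (1.12 to 1.97). Of these, Ero1L, Trap1 and Lon stayed past 2-fold with TMM and RLE factors. CG4538 turned below 1 with both.

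Regulators of protein stress beside Hsf were looked up as well. Of 6 genes of the unfolded protein and integrated stress responses, 3 were called higher and 1 lower on the authors' totals, against 40.6% and 3.21% of all tested genes, with a median log2 fold of 0.92. With TMM or RLE factors none was called higher and 1 lower. Atf6, a membrane-bound transcription factor of the unfolded protein response, had 117 RPM in Yb ΔHel-C and 287 RPM in Yb WT, 2.46-fold lower (2.17 to 2.81), and was also called lower with TMM and RLE factors. PEK, the kinase PERK, had 195 RPM in Yb ΔHel-C and 65.3 RPM in Yb WT, a ratio of 2.98 (2.53 to 3.53). Xbp1 had a ratio of 2.17 (1.87 to 2.53) and crc, the fly ATF4, 2.04 (1.41 to 2.99). Ire1, the endonuclease that splices Xbp1 and the most abundant of the 6, had 352 RPM in Yb ΔHel-C and 223 RPM in Yb WT, a ratio of 1.58 (1.43 to 1.74) that turned below 1 with TMM and RLE factors. The list of other small heat shock proteins held 6 rows, of which 5 were at 0 in both groups, and CG14207, an HspB8-type gene, had 17 reads in Yb ΔHel-C and 9 in Yb WT.

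**Figure D5:**
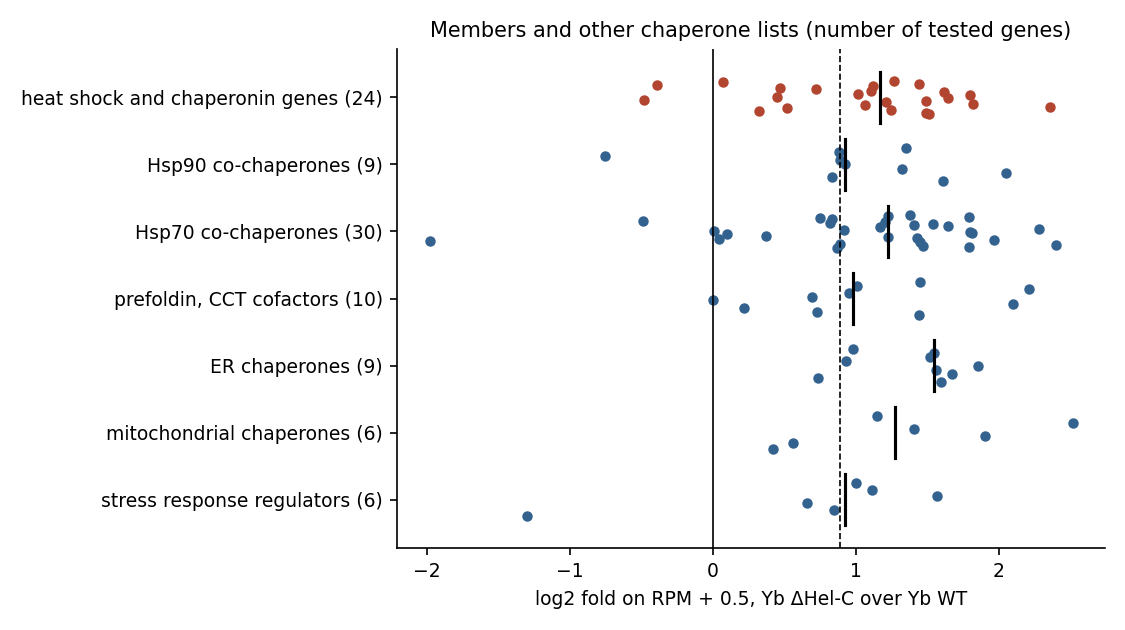
Log2 fold of Yb ΔHel-C over Yb WT on RPM + 0.5 for the tested heat shock and chaperonin genes (top) and for tested genes of 6 other chaperone lists without members, 1 point per gene, with vertical bars at each list's median. The dashed line is the median of all tested genes at 0.89; the members' median is 1.17 and that of the endoplasmic reticulum list 1.55.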

How the data were processed

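The authors deposited 1 table with 2 value columns, 1 per group, for 13931 gene and 133 transposon rows. No unit stands in the deposited header, and the values themselves showed RPM. Per the submitters' processing notes, which give no roles, the tools were STAR and HTSeq and the builds dm6 and BDGP6. How the 2 libraries of a group became 1 column was not stated. In each column 100% of values above 0 were whole multiples of 1 read within 0.01 read, which gave the read counts. The totals of 2803305 and 2955141 follow from reading the values as RPM. Columns of other series numbered 0.

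The planned edgeR test needs replicate columns and was not run. Ratios have exact conditional (Clopper-Pearson) intervals, ratios of ratios exact conditional odds-ratio intervals. The exact binomial test, adjusted over 7577 genes averaging 1 RPM or more, called 3075 genes higher and 243 lower at 2-fold or more, and 4327 and 583 with no minimum fold. Its steps were tested on simulated data. TMM and RLE factors came from edgeR 4.0.16 in R 4.3.3, other steps from Python 3.11.15 with scipy 1.17.1. All 37 members matched RefSeq's Release 6 (dm6) annotation, which gave positions.

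The name rule uses no measured value, but it and the lists were chosen with earlier results of these data known, so the choice was not blind to them. All members may be named, and from other lists the most abundant gene and up to 3 called genes a direction with a mean of at least 10 RPM. Of the listed symbols, 2 that matched unrelated genes (CG5393, which matched apt, and Hip1) were left out.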

Additional observations from a re-analysis of the deposited data

How the results depend on the processing

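The call of 15 members as 2-fold higher rests on the authors' totals: 1 was called with TMM factors, 1 with RLE factors and 8 when scaled to the total of gene reads. The log2 ratio of summed reads was 1.20 for Hsp names, 1.18 for Hsc names and 1.89 for CCT names. With TMM factors it was 0.36, 0.34 and 1.04, with RLE factors 0.31, 0.29 and 0.995, and with gene reads 0.90, 0.89 and 1.59. Without the most abundant member (Hsp83, Hsc70-3 or CCT6) it was 1.03, 0.84 and 1.33. The Hsc minus Hsp difference of -0.016 did not change with scaling. It was -0.19 without Hsc70-3 and Hsp83, and 0.41 without Hsc70-4. Log2 folds turned below 0 with TMM and RLE factors for Hsc70-4 (-0.39 and -0.44), CCT5 (-0.31 and -0.36), CCT3 (-0.48 and -0.53), Hsp26 (-0.085 and -0.13), Hsp68 (-0.72 and -0.77) and Hsp27 (-0.29 and -0.33), and for Hsp68 with gene reads (-0.21). Filters on low values and a pseudocount of 0.1 changed no member's call, and a pseudocount of 2 took Hsc70Cb under 2-fold. With no minimum fold, Hsc70-4 and CCT5 were called too. Over all genes, TMM factors called 651 higher and 867 lower, RLE 547 and 920, gene reads 2090 and 384, and the test with no minimum fold 4327 and 583. Of the other chaperone genes, 36 were called higher and 2 lower, against 7 and 4 with TMM and with RLE factors, and 55 were higher with no minimum fold. The cause of these changes beyond the shift of all genes was not tested. No paired analysis was possible because the columns carry no replicate numbers, and leaving out a replicate could not be run for the same reason. Depth limits members with few reads most.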
